A study of Mus musculus with 8 samples.

Results

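The neutrophils described here were single mouse kidney cells picked out by their transcripts, and they numbered 10272 of the 90855 cells that passed the limits on genes, counts and mitochondrial counts (of 120281 barcodes in all). A cell was taken when *S100a8*, *S100a9*, *Retnlg*, *Cxcr2*, *Slfn4* and *Hdc* together gave at least 6 counts and at least 0.5% of its counts, and when this sum was no smaller than that of 6 opposing genes of activated neutrophils (*Il1a*, *Csf1*, *Il1rn*, *Il36g*, *Il23a* and *Ccrl2*). At most 1 count was allowed for *C1qa*, *C1qb*, *C1qc*, *Vcan* and *Fn1* together (macrophages and monocytes), and at most 1 for *Flt1*, *Pax5*, *Themis* and *Slc12a1* together (endothelial, B, T and tubule cells). The sum over the 6 genes was met by 13050 cells, their share of counts by 11288, the comparison with the opposing genes by 10903, and the limits on other cells by 10457 and then 10272. The levels of these genes therefore chose the cells and are given as a description only.

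The animals were male C57BL/6 mice, and kidney cells came from 7 conditions. The uninjured control came from healthy mice whose kidneys had not been touched, and the other 6 conditions from mice whose left kidney had undergone ischemia-reperfusion injury (IRI), in which the renal vessels are clamped and released, harvested 1, 7 or 14 days later. Before IRI the mice had received either vehicle (DMSO) or entospletinib, an inhibitor of the kinase SYK, and injections were repeated until harvest in the mice kept beyond day 1. Suspensions of 3 mice were pooled per condition, dead cells were excluded with a dye and leukocytes were enriched by scatter in FACS, which leaves 1 pool and no replicate for each condition, and shares describe the sorted suspension. The cells were then divided over 8 sublibraries, and every SD given is over these technical portions of the same pool.

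Neutrophils are short-lived phagocytes made in the bone marrow and are among the first leukocytes to enter a kidney after ischemia. They mature with their granule proteins already made, leave the blood by way of selectins, integrins and chemokine receptors, and in inflamed tissue switch on cytokine and survival genes. SYK relays signals from receptors that carry or pair with an immunoreceptor tyrosine-based activation motif (ITAM), among them Fc receptors, C-type lectins and, in neutrophils, integrins.

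Promoter sequences are shown for 3 genes of the rule (*S100a8*, *S100a9* and *Retnlg*) and for *Lcn2*, a granule gene outside it, chosen after their values were seen. All 4 had lower values in vehicle at day 7 than at day 1 and their highest values with entospletinib at day 1. *Cxcr2* of the rule had the same order of values, and its window, which held none of the motifs searched, is not shown. Each is 300 bases on GRCm38.p6, 250 before to 50 after the gene's start in RefSeq, 5′ to 3′ on the strand of the gene. For *S100a8*, *Retnlg* and *Lcn2* that start differs from the GENCODE start, and the gene coordinates given below are those of GENCODE. Capitals mark matches on either strand to TTGCNNAA, a C/EBP-like motif, or GAGGAAG, a PU.1-like motif.
S100a8 (chr3:90668821-90669120, plus strand): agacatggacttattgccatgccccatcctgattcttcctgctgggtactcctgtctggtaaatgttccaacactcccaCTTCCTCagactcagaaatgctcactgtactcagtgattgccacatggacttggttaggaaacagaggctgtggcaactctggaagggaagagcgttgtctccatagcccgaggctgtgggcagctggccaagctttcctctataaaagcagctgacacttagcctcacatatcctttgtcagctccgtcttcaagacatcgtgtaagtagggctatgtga
S100a9 (chr3:90695672-90695971, minus strand): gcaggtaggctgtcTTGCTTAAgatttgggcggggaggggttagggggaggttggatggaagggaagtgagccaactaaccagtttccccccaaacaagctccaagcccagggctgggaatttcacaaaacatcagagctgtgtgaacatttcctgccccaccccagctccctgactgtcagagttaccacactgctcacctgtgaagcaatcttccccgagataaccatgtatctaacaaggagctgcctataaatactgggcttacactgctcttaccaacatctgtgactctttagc
Retnlg (chr16:48872358-48872657, plus strand): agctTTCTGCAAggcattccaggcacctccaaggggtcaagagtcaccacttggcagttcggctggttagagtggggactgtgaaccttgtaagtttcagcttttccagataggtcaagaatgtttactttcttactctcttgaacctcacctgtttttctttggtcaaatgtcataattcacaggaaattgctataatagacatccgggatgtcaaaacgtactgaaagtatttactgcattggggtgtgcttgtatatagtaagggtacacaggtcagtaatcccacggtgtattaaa
Lcn2 (chr2:32387690-32387989, minus strand): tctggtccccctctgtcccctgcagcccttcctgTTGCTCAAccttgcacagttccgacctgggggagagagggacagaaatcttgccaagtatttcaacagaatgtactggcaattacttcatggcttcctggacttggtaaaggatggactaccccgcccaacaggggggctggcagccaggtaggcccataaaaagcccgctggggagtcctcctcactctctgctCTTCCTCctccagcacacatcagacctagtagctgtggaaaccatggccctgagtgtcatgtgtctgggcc
The window of *S100a8* held the PU.1-like letters 171 bases before the RefSeq start, those of *S100a9* and *Retnlg* the C/EBP-like letters 236 and 246 bases before it, and that of *Lcn2* both. Of 32851 such windows in the table, 10.8% held TTGCNNAA and 13.6% held GAGGAAG. Windows of all 6 rule genes and of *Lcn2* were found and searched, and among the 7 the first motif occurred in 3 and the second in 2. Neither an NF-kappaB-like motif (in 1.20% of all windows) nor TTCNNNGAA (STAT-like, in 8.30%) occurred in any of the 7, which says only that these letters are not in these windows.

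S100A8 and S100A9 form calprotectin, a calcium-binding protein abundant in the neutrophil cytosol, and their genes are neighbours (*S100a8* at chr3:90668978-90670035 and *S100a9* at chr3:90692632-90695721, GENCODE on GRCm38). *Retnlg* (chr16:48872621-48874496) codes for a secreted resistin-like protein of myeloid cells, and *Cxcr2* (chr1:74153989-74161246) for the receptor of CXCL1 and CXCL2 that draws neutrophils to tissue. *Slfn4* (chr11:83175186-83190216) is a myeloid Schlafen gene induced by interferon, and *Hdc* (chr2:126593667-126619299) codes for histidine decarboxylase, the enzyme that makes histamine. *Hdc* is used by basophils and mast cells too.

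The libraries differed in ways that touch the results. Cells past the limits numbered 6110 to 22489 per condition, their median was 933 counts with entospletinib at day 14 and 2055 to 2928 elsewhere, and the neutrophils themselves gave 22496 to 12148241 counts per condition. No barcode was listed more than once and no combination of wells occurred in more than 1 condition, but 2808 of the neutrophils carried a combination that was also seen in another sublibrary. Doublet scoring called 4.56% of the neutrophils, against 6.98% of all cells past the limits. Counts of 18S ribosomal RNA (*Rn18s-rs5*, named after its values were seen) made up 44514 CPM (counts per 1000000 counts) of the neutrophils of vehicle at day 1, 105602 CPM at day 7 and 96148 CPM with entospletinib at day 1. In the last of these the neutrophils were also shallower than in vehicle at day 1 (a median of 1086.5 against 1616 counts) and had a larger median share of ribosomal protein counts (0.390% against 0.252%).

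The label of mature neutrophils was checked with genes that the rule did not use, against cells of lineages that the rule limits. No such shares are given here for monocytes, so the check does not set the cells apart from other myeloid cells. *Il1r2*, the decoy receptor of interleukin 1, and *Csf3r*, the receptor of the growth factor G-CSF, are characteristic of mature neutrophils. After every cell was thinned to 500 counts, with shallower cells left out (30 neutrophils in all), *Il1r2* was detected in 68.6% to 86.5% of the neutrophils across conditions, against 0.787% to 4.10% of cells with at least 3 counts of the endothelial, B, T and tubule genes. *Csf3r* was detected in 47.8% to 77.4%, against 0.429% to 2.59%. Without thinning the shares were 80.0% to 95.8% and 66.7% to 94.6% in the neutrophils, at median depths of 634.5 to 1616 counts, and 4.97% to 18.0% and 2.49% to 10.1% in the other cells, at 1129 to 3264.5.

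The defining marker *Ly6g* was near 0. It gave 105 counts in vehicle at day 1 (8.64 CPM) and 47 with entospletinib at day 1 (18.5 CPM), and none in the other 5 conditions, where 3 counts would have been 3.83 to 133 CPM. Genes of immature neutrophils were almost absent too, since the primary granule genes *Mpo*, *Elane*, *Prtn3*, *Ctsg* and *Ms4a3* summed to no more than 5.10 CPM in any condition.

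A small number of the cells had transcripts of another lineage. At least 2 counts of *Mcpt8*, *Cpa3*, *Ms4a2* and *Cyp11a1*, genes of basophils and mast cells, were found in 51 of them, and in those cells *Hdc* gave 89.5% of the counts of the 6 rule genes, against 28.9% in the rest. They were 9, 2 and 1 of the vehicle neutrophils at days 1, 7 and 14, 28, 3 and 4 of those with entospletinib, and 4 of the 54 in the uninjured control. The summed level of the 9 basophil and mast cell markers was 20.4 to 25.9 CPM in vehicle, 130 to 1422 CPM with entospletinib and 691 CPM in the control, and without the 51 cells it was at most 17.3 CPM. Markers of T and NK cells summed to 22.3 to 50.3 CPM in vehicle, to 85.1, 436 and 311 CPM with entospletinib at days 1, 7 and 14, and to 326 CPM in the control. Without the 51 cells these sums were 43.7, 347 and 256 CPM with entospletinib and 28.6 CPM in the control. With the drug at day 14, where the 30 cells were the shallowest, B cell markers reached 845 CPM and tubule markers 578 CPM, against 62.5 to 234 and 134 to 330 CPM in the other conditions. Without the 51 cells, B cell and tubule markers at day 14 with the drug were at 409 and 563 CPM. Eosinophil markers summed to 0 to 87.7 CPM, most of it *Siglecf* (84.8 CPM in vehicle at day 14), a lectin that eosinophils carry.

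The neutrophils were most frequent 1 day after IRI and were less frequent with entospletinib at each of the 3 days. In the uninjured control they were 54 of 11205 cells, or 0.482% (95% interval 0.362% to 0.628%, exact Clopper-Pearson, for counting error only, as all intervals here). In vehicle they were 6881 of 22489 cells (30.6% ± 1.23, SD over 8 sublibraries) at day 1, 544 of 6110 (8.90% ± 0.637) at day 7 and 623 of 17261 (3.61% ± 0.492) at day 14. With entospletinib they were 2066 of 14041 cells (14.7% ± 0.694) at day 1, 74 of 7605 (0.973% ± 0.388) at day 7 and 30 of 12144 (0.247% ± 0.124) at day 14.

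The order of the conditions was the same in each sublibrary for the pairs compared. The share was 63.5-fold higher in vehicle at day 1 than in the control, 3.44-fold lower at day 7 than at day 1, and 2.47-fold lower at day 14 than at day 7. With entospletinib the share was lower than with vehicle of the same day, by 2.08-fold at day 1 (log2 ratio -1.06 ± 0.03), 9.15-fold at day 7 (-3.19 ± 0.74) and 14.6-fold at day 14 (-3.87 ± 0.60). In each of these 6 comparisons all 8 sublibraries had the same direction and the values of the pair did not overlap. The share with entospletinib at day 14 (95% interval 0.167% to 0.352%) was below that of the control by these intervals, but their sublibraries overlapped (0.122% to 0.514% against 0.287% to 0.617%). The order turned when barcodes outside the limits were counted too, a choice made after seeing the data, with 87 of 17992 barcodes (0.484%) with the drug at day 14 and 57 of 20279 (0.281%) in the control. Over the 3 days the mean log2 ratio was -2.71 ± 1.47 (SD over days), lower at all 3, and an exact two-sided sign-flip permutation test gave p = 0.25, the smallest p that 3 pairs allow.

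**Figure D1:**
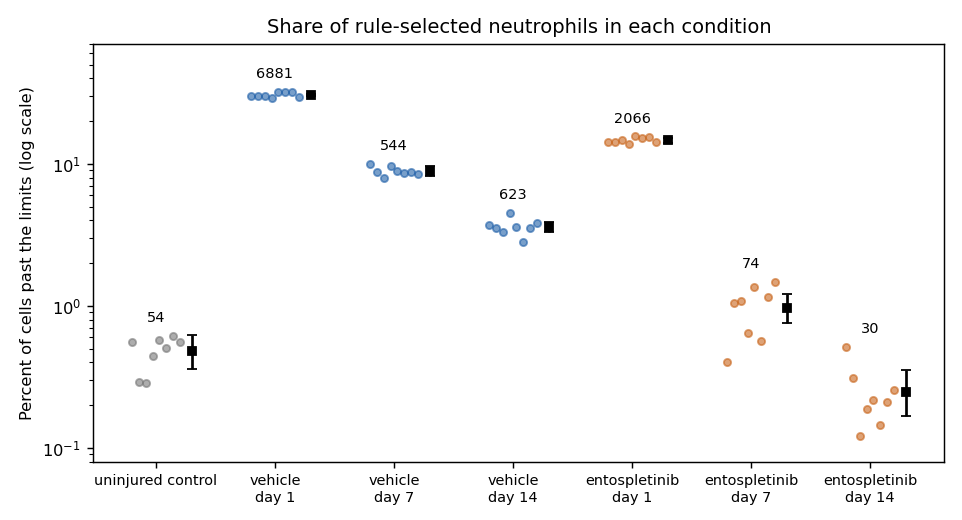
Percent of cells past the limits that were neutrophils by the rule (log scale) in the 7 conditions. Small circles are the 8 sublibraries, black squares the whole condition with its exact 95% interval, and the number above each group is its neutrophils, from 30 with entospletinib at day 14 to 6881 in vehicle at day 1.

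The sizes of these ratios moved with where the rule was drawn. With at least 10 counts or at least 1% of counts asked of the 6 genes, vehicle at day 7 was lower than at day 1 by log2 ratios of -2.46 and -2.89 instead of -1.78. The rule had a closer edge at day 7, where 10.8% of the neutrophils had exactly 6 counts of the 6 genes against 0.930% at day 1, and the median share of counts from the 6 genes was 0.871% against 1.73%. At day 14 the ratio of entospletinib to vehicle was -5.45 among cells with more than 500 genes, where 4 neutrophils remained with the drug, and -3.25 among cells with a count of *Ptprc* (CD45). Counted over all barcodes, those outside the limits included, the vehicle neutrophils were 28.9% of barcodes at day 1, 623 of 12968 at day 7 (95% interval 4.44% to 5.19%) and 3.51% at day 14, and the shares were 13.6%, 0.847% and 0.484% with the drug at the 3 days. All 6 differences kept their direction, with larger gaps between the control and vehicle at day 1 and between vehicle days 1 and 7, and smaller gaps between vehicle days 7 and 14 and between drug and vehicle at days 7 and 14.

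Cells on both sides of the rule's edges carried the neutrophil genes it did not use. The 226 cells with exactly 6 counts had *Il1r2* at 7017 CPM and *Csf3r* at 2341 CPM, and 202 cells with 5 counts that met the other limits had 6431 and 2480 CPM. Between 0.5% and 0.6% of counts there were 290 cells with *Il1r2* at 5378 CPM, and between 0.4% and 0.5% there were 191 with 5320 CPM. Of genes of other lineages, *Cyp11a1* and *Skap1* stood at 86.9 and 54.3 CPM with 6 counts and at 74.9 and 13.6 CPM with 5. They were at 4.81 and 24.0 CPM between 0.5% and 0.6%, and at 10.4 and 89.0 CPM between 0.4% and 0.5%. In all the neutrophils they were at 17.0 and 15.8 CPM. *Ebf1* was within 16.3 and 31.1 CPM in all of these groups.

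Within the 6 genes of the rule the levels differed among conditions. Values are CPM, a gene's counts summed over the neutrophils of a condition per 1000000 of all their counts, so they compare conditions and not genes of different length. *S100a8* stood at 822 CPM in the control, 2091, 1125 and 498 CPM in vehicle at days 1, 7 and 14, and 4288, 460 and 978 CPM with entospletinib. *S100a9* stood at 3692 CPM in the control, 6735, 3368 and 3000 CPM in vehicle and 12445, 3423 and 8579 CPM with the drug. Both had their highest pooled value with entospletinib at day 1, where no sublibrary overlapped one of vehicle at day 1.

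*Retnlg* was at 235 CPM in the control, at 466, 106 and 38.8 CPM in vehicle and at 950, 186 and 133 CPM with entospletinib. After thinning it was detected in 13.5%, 4.06% and 2.97% of the vehicle neutrophils and in 22.0% with entospletinib at day 1. Cells of the other lineages gave a background of at most 0.755%, which is no test, since the rule chose on *Retnlg* and on their genes. *Retnlg* at 133 CPM with the drug at day 14 rested on 3 counts, with an exact 95% Poisson interval of 27.5 to 390 CPM.

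*Cxcr2* moved less, with 992 CPM in the control, 1696, 945 and 1342 CPM in vehicle and 1764, 823 and 845 CPM with entospletinib. *Slfn4* was at 678 CPM in the control, at 1635, 385 and 742 CPM in vehicle and at 1520, 936 and 445 CPM with the drug. *Hdc* was at 6797 CPM in the control, at 5697, 3266 and 5366 CPM in vehicle and at 4764, 5570 and 5023 CPM with the drug. Vehicle at day 7 was the lowest condition for *Slfn4* and *Hdc* in the pooled values. Cells in which *Hdc* gave at least 80% of the counts of the 6 genes were 2.98%, 9.74% and 17.8% of the vehicle neutrophils at days 1, 7 and 14, and with the drug they were 2.08%, 14.9% and 13.3%, against 18.5% in the control.

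**Figure D2:**
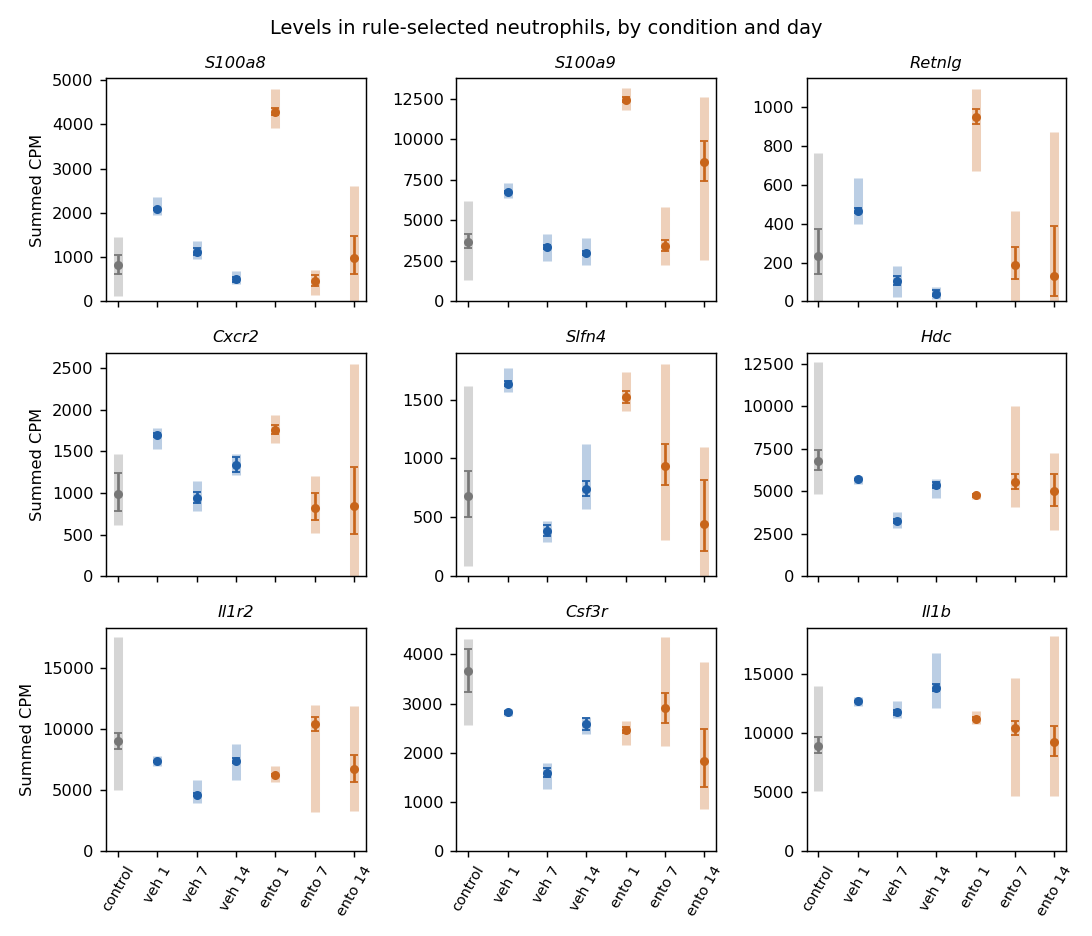
Summed CPM of the 6 rule genes and of *Il1r2*, *Csf3r* and *Il1b* in the neutrophils of each condition (veh, vehicle; ento, entospletinib; numbers are days). Points are the condition with its exact 95% Poisson interval and pale bars span the lowest to the highest of the 8 sublibraries, and the 8 sublibraries of entospletinib at day 1 lie between 3923 and 4800 CPM for *S100a8*, above those of vehicle at day 1 (1957 to 2364 CPM).

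Genes outside the rule gave the cells a common frame. *Il1r2* ranged from 4644 CPM in vehicle at day 7 to 10406 CPM with entospletinib at day 7, and *Csf3r* from 1588 CPM in vehicle at day 7 to 3653 CPM in the control. *Il1b*, the inflammatory cytokine that neutrophils store as a precursor, was within 8950 and 13859 CPM in every condition. *Mcl1*, the survival factor on which neutrophils depend, was within 1074 and 1378 CPM.

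Genes were next compared between conditions within the neutrophils. A gene was tested when its mean was at least 50 CPM and at least 20 counts were expected in the smaller pool, and it was called when its log2 ratio, taken relative to the median of the genes tested, passed 2-fold. With 1 pool per condition no p-value was made. As the minimum is on the mean of the pair, a gene can be tested through 1 pool alone, the one where it is high. Ratios in all other cells are those of every cell past the limits that the rule did not take. These include cells rich in the opposing genes and neutrophils that the rule missed. Scaling by edgeR's TMM factors in place of the median gene shifts all log2 ratios of a comparison by 1 constant, and the shifts were -0.39, 0.07, -0.21, -0.13 and 0.38 in the order in which the comparisons follow.

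From day 1 to day 7 after IRI with vehicle, 8 of 11 interferon-stimulated genes tested, 5 of 10 granule genes and 4 of 11 adhesion genes were lower in the neutrophils, and 6 of 18 immediate early genes were higher. With TMM scaling 9, 6 and 6 of these lists were lower and 3 immediate early genes higher. Of 2624 genes tested, 189 were higher at day 7 (7.2%) and 198 lower (7.55%), and 154 and 186 of them had that direction in all 8 sublibraries. With TMM scaling 80 were higher and 483 lower, so that 14.2% of the calls were higher instead of 48.8%. Of the calls, 41 higher and 30 lower genes were also past 2-fold in all other cells.

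Of the granule genes, 5 of 10 tested were lower at day 7, against 7.55% of all genes. *Lcn2*, which codes for the iron-scavenging granule protein NGAL, was at 483 CPM at day 1 and 72.7 CPM at day 7 (log2 ratio -2.56 ± 1.20), and *Pglyrp1*, an antibacterial granule protein, at 211 and 42.1 CPM (-2.15 ± 1.33). *Adam8*, a surface protease, was at 985 and 274 CPM (-1.67 ± 0.38). *Padi4* and *Anxa1* were the other 2 that were lower of the 15 genes of secondary and tertiary granules, 1 was higher (*Cd177*, not past 2-fold with TMM) and the median log2 ratio of the 10 tested was -1.12. The median of the same genes in all other cells was -1.06.

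Among 20 tested genes of neutrophil identity that the rule did not use, 6 were lower and 1 was higher, with a median of -0.66, against 7.55% of all genes lower and 7.2% higher. With TMM 11 were lower and none higher (median -1.05), against 483 lower and 80 higher of all 2624 genes tested. *Mxd1*, a repressor of MYC targets in mature neutrophils, was at 4367 and 1798 CPM (-1.11 ± 0.15), and *Ifitm1*, of the interferon-induced transmembrane family, at 370 and 72.7 CPM (-2.17 ± 0.80). The list shares *Lcn2*, *Pglyrp1* and *Cd177* with the granule list.

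Interferon-stimulated genes were the list with the largest share of lower calls, 8 of 11 tested and none higher, against 7.55% of all genes. *Rsad2*, which codes for the antiviral protein viperin, was at 167 CPM at day 1 and 24.2 CPM at day 7 (-2.60 ± 1.85), and *Trim30a* at 624 and 195 CPM (-1.50 ± 0.39). *Oas3* (-2.24), *Ifi204* (-2.17), *Rnf213* (-1.31), *Slfn5* (-1.17), *Oasl2* (-1.11) and *Slfn1* (-1.07) made up the rest. The median was -1.17 in the neutrophils and -0.18 in all other cells. The list held 28 genes, of which 11 were tested, and *Rsad2* met the minimum mean through day 1 alone. Cells were also chosen on *Slfn4*, itself a gene induced by interferon. Beyond that list, *Ifitm3* was among the genes with the lowest ratios, at 200 CPM and 11.5 CPM.

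Genes of adhesion and entry were lower in 4 of 11 cases and higher in 1, against 7.55% and 7.2% of all genes. Their median was -0.92 in the neutrophils and -0.47 in all other cells. *Itgal*, the alpha chain of the integrin LFA-1, was at 524 and 184 CPM (-1.34 ± 0.37), *Itga4* at 300 and 111 CPM and *Selplg*, the selectin ligand PSGL-1, at 524 and 212 CPM. The 1 higher gene was *Icam1*, a ligand of LFA-1, at 240 and 588 CPM (1.46 ± 0.32).

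Immediate early genes were higher in 6 of 18 cases and lower in none (median 0.52), against 7.2% and 7.55% of all genes. *Nr4a2* and *Nr4a3*, orphan nuclear receptors, were at 46.4 and 202 CPM (2.29 ± 0.82) and at 407 and 999 CPM (1.47 ± 0.44), and *Egr2* at 24.0 and 117 CPM (2.46 ± 0.73). *Ier3*, *Fosb* and *Egr3* were called at 1.29, 1.21 and 1.12 and did not pass 2-fold with TMM. In all other cells the log2 ratio of *Nr4a2* was 0.00 and that of *Egr3* 2.04.

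Other inflammatory genes were past 2-fold singly. *Nlrp3*, the sensor of the inflammasome that matures interleukin 1β, was at 966 and 1927 CPM (1.17 ± 0.27, 0.78 with TMM), and *Tlr4*, the receptor of endotoxin, at 292 and 632 CPM (1.29 ± 0.09, 0.90 with TMM). *Vegfa*, an angiogenic factor induced by hypoxia, was at 78.8 and 277 CPM (1.99 ± 0.61), *Hk2*, the first enzyme of glycolysis, at 52.6 and 200 CPM (2.10 ± 0.56) and the oxygen sensor *Egln3* at 79.4 and 227 CPM (1.69 ± 0.69). In the same hypoxia list *Pfkfb4* and *Slc2a3* were lower (-1.49 and -1.09), and the list's median over 17 genes was -0.15. Survival genes had a median of 0.36 over 12 genes, -0.03 with TMM, with the anti-apoptotic *Bcl2a1d* (1.73) and *Bcl2a1b* (1.07) called, and the NF-kappaB list a median of 0.46 over 13 with 1 call. Of all genes tested 7.2% were called higher. With TMM *Bcl2a1b* did not pass 2-fold, and the NF-kappaB list had no call (median 0.07).

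The largest ratios at day 7 belonged to *F10*, coagulation factor X, at 41.8 CPM at day 1 and 634 CPM at day 7 (4.09 ± 0.66), and to *Ikbke*, a kinase of innate immune signalling, at 46.8 and 418 CPM (3.33 ± 0.41). In all other cells *F10* had a log2 ratio of -0.02 and *Ikbke* of 0.85. *Dip2c* (3.17), *Rpph1* (3.18) and *Cdk8* (3.17) followed, of which *Cdk8* and *Rpph1* ran the same way in all other cells (3.08 and 3.23), as did the rRNA gene *Rn18s-rs5* (1.42, and 1.26 in other cells). The part of this pool-wide difference in the calls within neutrophils was not tested. The lowest beside *Ifitm3* were *Wfdc17* (-3.82), *Crispld2* (-3.38, or -4.34 without sublibrary 4), *Klra17* (-2.61) and *Rsad2*.

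**Figure D3:**
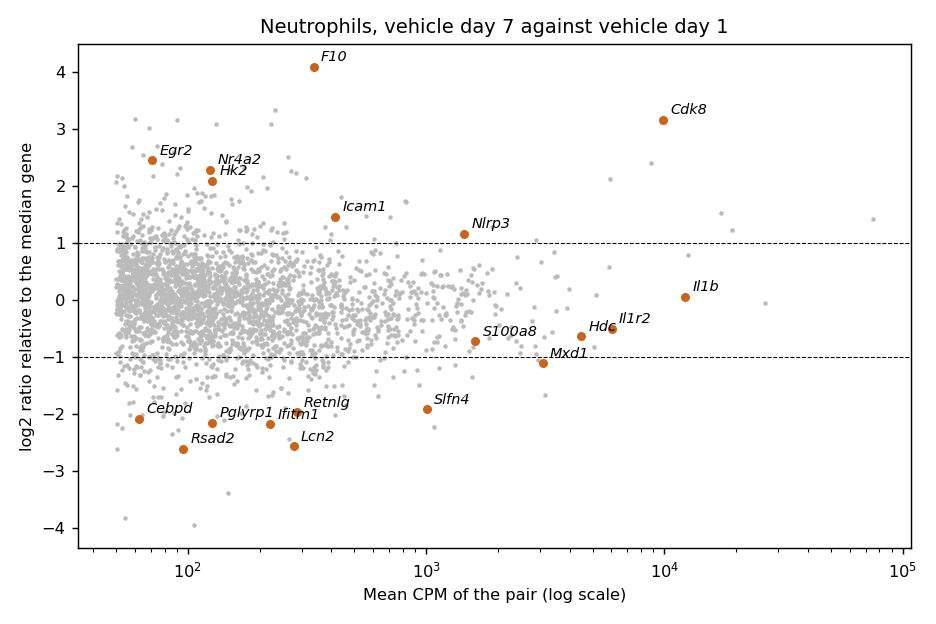
Mean CPM of each tested gene in the pair (log scale) against its log2 ratio, vehicle at day 7 over vehicle at day 1, within the neutrophils and relative to the median gene. Dashed lines mark 2-fold, and orange points are labelled genes, with *F10* at 4.09 and *Rsad2* at -2.60.

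From day 7 to day 14 with vehicle fewer genes were past 2-fold, among them 4 of 10 cytokine genes that were lower. Of 2660 genes tested 45 were higher (1.69%) and 90 lower (3.38%), with 21 and 56 of one direction in all 8 sublibraries. Higher genes were 33.3% of the calls, and 43.9% with TMM. This comparison shares the day 7 pool with the one above, so a gene high or low in that pool appears in both with opposite signs.

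Of 10 tested cytokine genes outside the rule 4 were lower and none higher (median -0.63, and -0.90 in other cells), against 3.38% and 1.69% of all genes. *Cxcl2*, the chemokine read by CXCR2, was at 3858 CPM at day 7 and 1766 CPM at day 14 (-1.30 ± 0.19), *Cxcl3* at 231 and 34.5 CPM (-2.89 ± 1.38), *Ccl3* at 221 and 108 CPM (-1.20 ± 0.82) and *Ccl4* at 101 and 53.2 CPM (-1.08 ± 1.40). *Cxcl2* was lower in all 8 sublibraries and *Ccl4* in 6. *Tlr4* was lower as well, at 632 and 279 CPM (-1.35 ± 0.30), and so was *Plin2*, a coat protein of lipid droplets, at 200 and 70.5 CPM (-1.67 ± 0.77).

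*F10* returned from 634 to 61.8 CPM (-3.51 ± 1.11) and *Hilpda*, a lipid-droplet gene induced by hypoxia, went from 144 to 11.5 CPM (-3.74 ± 1.23). *Noct* (-3.46), *Garin1a* (-3.33, or -4.07 without sublibrary 2) and the unnamed gene ENSMUSG00000120076 (-3.01) were the other lowest. In all other cells *F10*, *Hilpda* and *Garin1a* had log2 ratios of -2.89, -3.43 and -3.39.

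Among the interferon list *Rnf213* was higher, at 94.4 and 296 CPM (1.47 ± 0.73), and the median of its 7 tested genes was 0.67. *Itga4* (1.27), the kinase gene *Pik3cd* (1.22) and the clock gene *Per1* (1.16) were higher as well. The highest ratio was that of *Cx3cr1*, the fractalkine receptor, at 25.5 and 101 CPM (1.78 ± 0.54), followed by *Prr5l* (1.56), *Rnf213*, *Ccnd2* (1.42) and *Hip1* (1.32). The class II genes *Cd74* (162 and 420 CPM) and *H2-Ab1* (33.2 and 92.0 CPM) were higher at day 14, when the summed level of the 10 macrophage markers was 817 CPM against 417 CPM at day 7 and that of the 9 dendritic markers 723 against 287 CPM. The part of other cells' RNA in these was not tested.

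With entospletinib at day 1 the neutrophils differed from vehicle in few genes, among them 3 of 9 granule genes that were higher relative to the median gene and none that was with TMM. Of 2611 genes tested 48 were higher (1.84%) and 27 lower (1.03%), with 46 and 26 of one direction in all 8 sublibraries. Higher genes were 64% of the calls relative to the median gene and 29.4% with TMM, with 27 higher and 65 lower genes. The vehicle pool at day 1 is shared with the comparison of day 7 with day 1.

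*Pglyrp1* was at 211 CPM with vehicle and 436 CPM with entospletinib (1.16 ± 0.26), *Lcn2* at 483 and 948 CPM (1.08 ± 0.22) and *Anxa1*, which codes for the pro-resolving protein annexin A1, at 206 and 408 CPM. These were the 3 higher genes among 9 tested of the secondary and tertiary granule list, with none lower, against 1.84% and 1.03% of all genes. The list's median was 0.76 (0.56 with TMM), and -0.38 in all other cells. In those other cells the 6 rule genes summed to 675 CPM with vehicle and 489 CPM with the drug. The part of neutrophils outside the rule in the ratio of other cells was not tested. *Wfdc21*, a secreted protease inhibitor, was at 73.7 and 220 CPM (1.68 ± 0.29) and *Ifitm1* at 370 and 759 CPM (1.14 ± 0.15), and with *Lcn2* and *Pglyrp1* they made 4 higher genes of 20 in the identity list (median 0.23, and 0.02 with TMM). With TMM scaling *Wfdc21* stayed past 2-fold, and *Pglyrp1*, *Lcn2*, *Anxa1* and *Ifitm1* stood at 0.95, 0.87, 0.89 and 0.94, which left no higher gene in the granule list and 1 lower. The rule genes *S100a8* and *Retnlg* had log2 ratios of 1.14 and 1.13, or 0.94 and 0.93 with TMM.

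Single genes of activation were lower with entospletinib at day 1. *Cxcl3* was at 174 CPM with vehicle and 61.1 CPM with the drug (-1.40 ± 0.58), *Icam1* at 240 and 93.0 CPM (-1.26 ± 0.45), *Bcl2a1b* at 176 and 69.4 CPM (-1.24 ± 0.32) and *Nr4a3* at 407 and 184 CPM (-1.04 ± 0.36). All 4 were lower in all 8 sublibraries. Of 16 immediate early genes tested *Nr4a3* was the 1 lower and *Jund* the 1 higher, against 1.03% and 1.84% of all genes. With TMM 1 was lower and none higher. *Il1a*, at 144 and 49.7 CPM, is one of the opposing genes that the rule limits, so its level is a description only.

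Other activation genes did not pass 2-fold relative to the median gene. With TMM, which shifts these ratios by -0.21, *Ptgs2* was past 2-fold and the other 3 named next were not. *Ptgs2*, the cyclooxygenase of prostaglandin synthesis, was at 1914 and 987 CPM (-0.85 ± 0.12), *Nlrp3* at 966 and 561 CPM (-0.68 ± 0.18), *Nfkbia* at 1942 and 1242 CPM (-0.54 ± 0.17) and *Cxcl2* at 3256 and 3278 CPM (0.12 ± 0.10). The NF-kappaB list had no call among 12 genes and a median of -0.40, the interferon list none among 14 and a median of -0.03. With TMM the NF-kappaB list had 1 lower gene (median -0.60) and the interferon list none (median -0.23). The medians of the adhesion (0.09), cytokine (0.08), immediate early (0.05) and transcription factor (0.12) lists changed sign with TMM, and that of the cytokine list was -0.04 without the cells with basophil and mast cell transcripts.

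The largest ratios with entospletinib at day 1 were *Peak1*, a scaffold kinase gene, at 301 and 3169 CPM (3.50 ± 0.31), *Rpph1*, the RNA of ribonuclease P (3.25 ± 0.52), and *Il31ra* (2.64 ± 0.49). In all other cells of the pools these 3 had log2 ratios of 3.62, 3.03 and 2.68, and *Rn18s-rs5* stood at 1.22 in the neutrophils and 0.94 in other cells. Their part in the neutrophil calls was not tested. *Pou2f2* (1.92) and *Wfdc21* followed, and the lowest were *Rcbtb2* (-1.69), *Rhoq* (-1.64), *Gm13986* (-1.62), *Dock4* (-1.53) and *Junos* (-1.51).

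**Figure D4:**
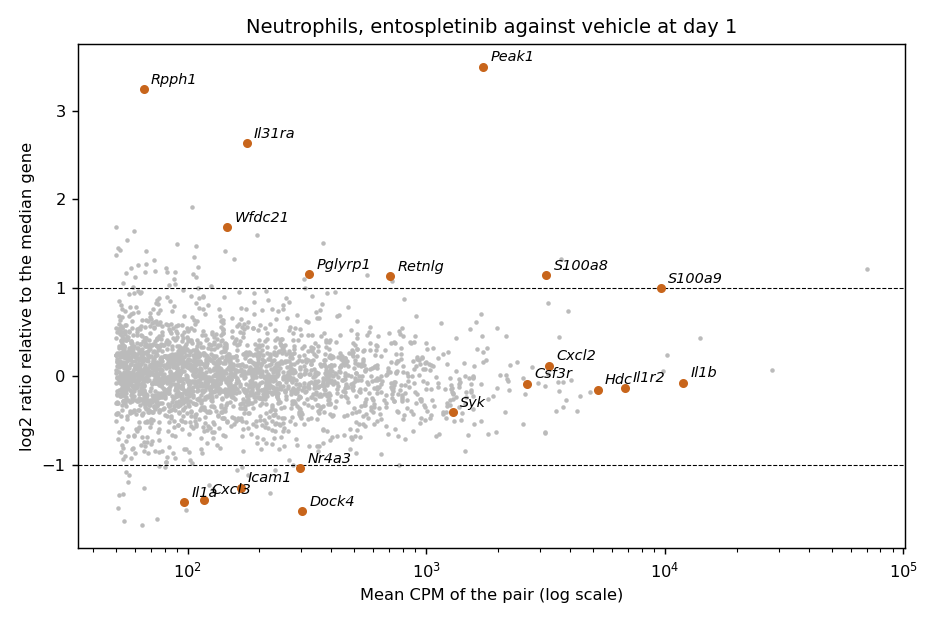
Mean CPM of each tested gene in the pair (log scale) against its log2 ratio, entospletinib over vehicle at day 1, within the neutrophils and relative to the median gene. Dashed lines mark 2-fold, and orange points are labelled genes, with *Pglyrp1* at 1.16, *Il1b* at -0.07 and *Cxcl3* at -1.40.

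At day 7 there were 74 neutrophils with entospletinib, and in them the chemokine *Cxcl2*, the endotoxin receptor *Tlr4*, its co-receptor *Cd14* and 3 of 8 survival genes tested were lower. Of 1041 genes tested 75 were higher (7.2%) and 89 lower (8.55%) than with vehicle at day 7, with 22 and 46 of one direction in all 8 sublibraries. Higher genes were 45.7% of the calls, and 33.1% with TMM. After thinning each cell to 500 counts, an alternative chosen after seeing the data, 23 were higher and 26 lower. The vehicle pool is the one of the comparisons of day 7 with day 1 and of day 14 with day 7.

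*Cxcl2* was at 3858 CPM with vehicle and 856 CPM with entospletinib (-2.36 ± 1.17, lower in all 8 sublibraries), and with *Vegfa* (-1.28 ± 2.48) and *Osm*, which codes for oncostatin M (-1.08 ± 1.49), it made 3 lower genes of 7 tested cytokines. The list held 21 genes, and of all genes tested 8.55% were lower. Of 17 survival genes 8 were tested, and 3 were lower and none higher, against 8.55% and 7.2% of all genes. The 3 were *Cflar* at 292 and 64.6 CPM (-2.34 ± 2.01), *Bcl2l1*, which codes for BCL-XL, at 781 and 202 CPM (-2.13 ± 1.83), and the pro-apoptotic *Bcl2l11* at 748 and 339 CPM (-1.32 ± 2.45). *Tlr4* was at 632 and 80.7 CPM (-3.13 ± 2.40) and its co-receptor *Cd14* at 547 and 161 CPM (-1.94 ± 1.53). *Tlr4* rested on 10 counts with the drug, and its log2 ratio was -4.18 without sublibrary 7. All of these except *Vegfa* were lower in all 8 sublibraries, which held only 4 to 15 neutrophils each with the drug. After thinning *Vegfa* stood at -0.34 and *Cflar* at -1.06.

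*Nlrp3* was at 1927 and 799 CPM (-1.45 ± 0.57). Among 10 NF-kappaB genes tested *Tnip1* (-1.99), *Nfkb2* (-1.09) and *Nfkb1* (1412 and 799 CPM) were lower, against 8.55% of all genes. The list's median was -0.67 in the neutrophils and -0.69 in all other cells. The medians of the cytokine and survival lists were -0.50 and -0.58, and -1.53 and -0.92 in other cells. Without the 3 cells with basophil and mast cell transcripts in the drug pool and the 2 in the vehicle pool, the median of the cytokine list was -1.08.

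Higher with entospletinib at day 7 were *Itga4* (1.38), *Itgal* (1.55) and *Rnf213* (1.65). Of 10 adhesion genes tested, *Itga4* and *Itgal* were the 2 higher and *Icam1* the 1 lower (2 higher and 2 lower with TMM), against 7.2% and 8.55% of all genes. The 1 lower gene of 10 is near the share of all genes. The log2 ratio of *Icam1* ran from -1.84 to -1.22 with 1 sublibrary left out. The highest ratio was that of *Ccnd3*, cyclin D3, at 344 and 2083 CPM (2.41 ± 0.64), followed by *Rasa3* (1.90), *Ripor2* (1.82), *St8sia4* (1.77) and *Mbp* (1.70). T and NK cell markers summed to 436 CPM in these 74 cells and to 29.3 CPM in vehicle, and their part in these genes was not tested.

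*F10* gave 1 count against 497 in vehicle at day 7 (8.07 and 634 CPM), B230303A05Rik 2 against 617 and ENSMUSG00000120076 none against 262. The log2 ratios of *F10* and B230303A05Rik were -6.30 ± 1.08 and -5.70 ± 1.21. Leaving out 1 sublibrary at a time took them to -9.20 and -6.37 at the lowest. *Abca1*, the cholesterol exporter, was at 1217 and 56.5 CPM (-4.59 ± 2.08) and *Ikbke* at 418 and 32.3 CPM (-3.84 ± 1.57, or -4.59 without sublibrary 7). *Ikbke* was also lower in vehicle at day 14 than at day 7 (-1.32 ± 0.80), so *F10* and *Ikbke* were higher in vehicle at day 7 than in vehicle at days 1 and 14 and with the drug at day 7.

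Vehicle at day 1 was also set against the 54 neutrophils of the uninjured control, a comparison chosen after seeing the data that shares its vehicle pool with those above. Of 704 genes tested 63 were higher (8.95%) and 43 lower (6.11%), with 37 and 18 of one direction in all 8 sublibraries. Higher genes were 59.4% of the calls, and 88.2% with TMM, and after thinning 16 were higher and 13 lower.

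*Cxcl2* was at 417 CPM in the control and 3256 CPM in vehicle at day 1 (2.86 ± 0.88), from 32 counts in the control. *Bcl2l1* was at 104 and 1120 CPM (3.32 ± 4.27) from 8 counts and *Lcn2* at 52.2 and 483 CPM (3.11 ± 3.93) from 4 counts. Without sublibrary 8 *Bcl2l1* stood at 4.05, and without sublibrary 1 *Lcn2* stood at 3.85. *Mmp9*, a gelatinase of tertiary granules, was at 300 and 785 CPM (1.28 ± 0.80) and *C5ar1*, the receptor of complement C5a, at 274 and 681 CPM (1.21 ± 0.65). The other highest were *Arid5b* and *Itpkb* (both 2.58). Of 11 immediate early genes tested 3 were lower after IRI, against 6.11% of all genes. They were *Jund* at 744 and 217 CPM (-1.88 ± 0.84), *Atf3* (-1.72 ± 1.27) and *Fosb* (-1.53 ± 3.39, or -0.89 after thinning). *Cdk8* (-2.53), *Dym* (-1.86), *Vps37b* (-1.70) and *mt-Rnr1* (-1.60) were the other lowest.

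The genes of the SYK pathway, the drug's target, were followed across all comparisons. *Syk* itself (chr13:52583173-52648792, GRCm38) was at 1605 CPM in the control, at 1520, 1166 and 1284 CPM in vehicle at days 1, 7 and 14 and at 1065, 1058 and 578 CPM with entospletinib. Thinned to 500 counts it was detected in 28.6% to 49.1% of the neutrophils, against 6.69% to 17.9% of the other lineages. The log2 ratio with entospletinib was -0.41 ± 0.13 at day 1, lower in all 8 sublibraries and not past 2-fold, and -0.40 in all other cells. At day 7 it was -0.32 ± 0.56, lower in 4 of 8 sublibraries.

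Among 24 tested genes of SYK, its receptors, ITAM chains and partners, none was called with entospletinib at day 1 (median -0.15), against 1.84% and 1.03% of all genes. With TMM 1 was lower (median -0.36), against 65 of all 2611 genes tested. At day 7 with the drug 1 of 19 was higher (*Pik3cd*, median -0.04), against 7.2% of all genes, and with TMM 1 was higher and 2 lower. *Clec4e*, which codes for the damage-sensing lectin Mincle that signals through SYK, was at 887 CPM in the control, at 1412, 1600 and 1398 CPM in vehicle and at 1038, 1138 and 1111 CPM with the drug. *Lyn*, a kinase that acts before SYK, was at 3314 CPM in vehicle at day 1 and 3138 CPM with entospletinib.

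Between vehicle days 1 and 7, 2 of 22 genes of this list were lower and none higher (median -0.22), a share near the 7.55% of all genes called lower. The 2 were the ITAM chains *Fcer1g*, at 493 and 167 CPM (-1.39 ± 0.37), and *Tyrobp*, at 665 and 278 CPM (-1.08 ± 0.23), through which Fc receptors and many lectins reach SYK. With TMM 8 of the 22 were lower (median -0.61), against 483 of all 2624 genes tested. From day 7 to day 14 only *Pik3cd* was called, higher, of 21, against 1.69% of all genes. From the control to vehicle at day 1 only *Lcp2* was called, higher, of 16, against 8.95% of all genes. With TMM 5 were higher (median 0.84), against 119 of all 704 genes tested. *Lcp2* had a log2 ratio of 1.40, or 2.09 without sublibrary 8.

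**Figure D5:**
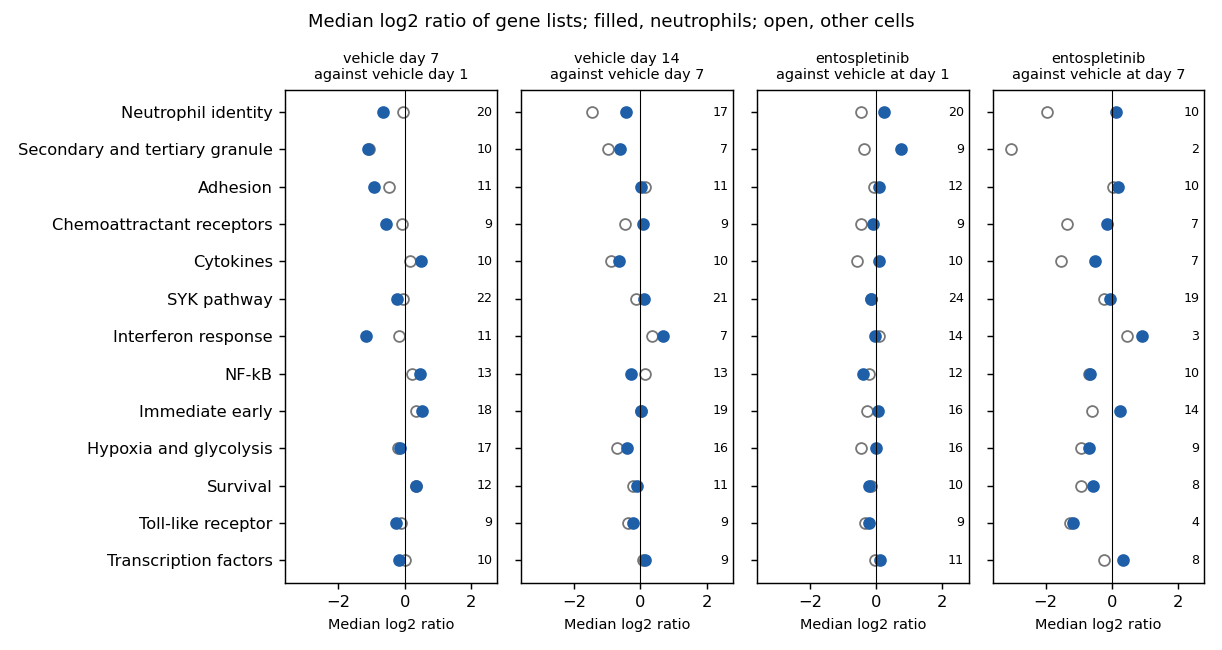
Median log2 ratio of 13 gene lists in 4 comparisons, in the neutrophils (filled, given where at least 3 genes were tested) and in all other cells past the limits (open), with the number of genes tested at the right of each panel. In vehicle at day 7 against day 1 the interferon list lies at -1.17 in the neutrophils and -0.18 in other cells, and with entospletinib at day 1 the granule list lies at 0.76 and -0.38.

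The rule read from the other side, with the 6 opposing genes at or above the same limits and above the sum of the 6 neutrophil genes, took 1080 cells. The cells described here were 94.6%, 61.5% and 69.4% of those taken by either rule in vehicle at days 1, 7 and 14, and at day 1 they were 98.1% with the drug. In vehicle at day 7 the mirrored cells numbered 341, with *Il1r2* at 2297 CPM against 4644 CPM, *Nlrp3* at 2776 against 1927 CPM and *F10* at 1162 against 634 CPM. Their ratios from vehicle day 1 to day 7 ran the same way for *F10* (2.15), *Ikbke* (2.58), *Nlrp3* (1.09) and *Rsad2* (-5.23). The median of the 6 rule genes was -0.77 in the neutrophils and -0.69 in the mirrored cells. Of these *S100a8* stood at -0.72 ± 0.23 in the neutrophils (not past 2-fold) and at 0.09 in the mirrored cells. Both rules chose cells on these genes, so their values are a description only.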

How the data were processed

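Single kidney cells were profiled by combinatorial barcoding (Parse) as 8 deposited samples that each mixed all 7 conditions. The authors aligned the reads to mm10 with the Parse pipeline (the submitters' processing notes name the build, and the annotation release is not given in the sources used here) and deposited raw transcript counts per gene and cell, with a table giving each cell's condition. All 120281 barcodes were read, and cells with more than 300 genes, fewer than 20000 counts and under 25% mitochondrial counts were kept. The conditions that the table names after IRI alone were taken as vehicle from the study's methods.

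Counts were summed over the neutrophils of each condition and given as CPM. Log2 ratios were taken after adding 0.5 counts, scaled to the pools' sizes, and relative to the median of the tested genes (mean of at least 50 CPM, at least 20 expected counts). Genes were called past 2-fold with no p-value, since each condition was 1 pool. Genes named were those of the rule, genes of fixed lists that were called or well measured, and the 5 largest ratios per direction with the same sign in all 8 sublibraries. The members and lists were chosen with earlier results of these data known. Intervals are exact at 95% and cover counting error only. Doublets were scored against simulated ones among 30 neighbours and kept. Median depths of the neutrophils were 634.5 to 1616 counts. Alternatives were stricter limits, thinning to 500 counts, other CPM minimums, TMM scaling and leaving out sublibraries. Tables were handled with pandas 2.3.3 in Python 3.11.15, intervals came from scipy 1.17.1, neighbours from scikit-learn 1.9.0 (on numpy 2.4.6) and figures from matplotlib 3.10.9, edgeR 4.0.16 in R 4.3.3 gave the TMM factors only, and the scripts were tested on simulated data. Some genes of the lists are not reported here.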

Additional observations from a re-analysis of the deposited data

Results flagged for a closer look

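Among 31 groups of 8 sublibraries, 3 held a value far from the others, and chance gives about 1 in 20. *Retnlg* in vehicle at day 1 stood at 632 CPM in sublibrary 7, the highest of the 8. In vehicle at day 14 *Slfn4* stood at 1120 CPM in sublibrary 2, the highest, and *Hdc* at 4629 CPM in sublibrary 4, the lowest.

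Of 133 genes compared between entospletinib and vehicle at both day 1 and day 7, 4 had opposite signs at the 2 days in all 8 sublibraries, and the difference between days was not tested. *S100a8* had log2 ratios of 1.14 at day 1 and -1.47 at day 7, *Osm* of 0.66 and -1.08, *Cxcl2* of 0.12 (-0.09 with TMM, so that its signs are then the same) and -2.36, and *Hdc* of -0.15 and 0.59. *S100a8* and *Hdc* are genes on which the rule chose the cells, so their values are a description only. The neutrophils numbered 2066 with the drug at day 1 and 74 at day 7.

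Barcodes outside the limits on genes, counts and mitochondrial counts entered no comparison, and some met the gene part of the rule. They were 3 of 9074 in the uninjured control (0.0331%). The shares were 2.05% (30 of 1463), 1.15% (79 of 6858) and 2.01% (22 of 1092) in vehicle at days 1, 7 and 14, and 1.45% (18 of 1241), 0.597% (23 of 3850) and 0.975% (57 of 5848) with entospletinib. With the drug at day 14 these 57 outnumbered the 30 neutrophils within the limits.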

How the results depend on the processing

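The alternatives were run on 218 gene values, which hold 199 of the 867 calls. None of these 199 and no share ratio between the conditions compared changed sign. Rule genes that were not called did: *Slfn4* (TMM -0.20) and *Cxcr2* (TMM -0.04) with entospletinib at day 1, and *Retnlg* (thinned -0.01) and *Hdc* (TMM 0.02) in vehicle at day 1 against the control, and so did the list medians named above. Of the share ratios 34 moved by less than 1 SD over sublibraries and 14 by more, and of the gene counts 77 stayed within 1.5 times and 23 did not. Of the single gene values 2143 moved by less than their own SD over sublibraries and 37 by more. Where that SD is large, as for *Bcl2l1* against the control (4.27), a value can hardly move by more. Staying past 2-fold was not part of this count. For vehicle at day 7 against day 1 the log2 share ratio was -2.46 with at least 10 counts of the 6 genes, -2.89 with at least 1% of counts, -2.07 above 500 genes, -1.57 after thinning and -2.01 among cells with *Ptprc*. For entospletinib at day 1 it was -0.93 (1%), -0.73 (under 1.5% ribosomal protein counts), -1.44 (500 genes), -0.99 (thinned) and -0.97 (*Ptprc*). For vehicle at day 14 against day 7 it was -0.75 (1%) and -1.55 (500 genes), and for entospletinib at day 14 -5.45 (500 genes) and -3.25 (*Ptprc*). The cause was not tested.

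With TMM scaling the higher and lower genes were 80 and 483 for vehicle day 7 against day 1, 27 and 65 for entospletinib at day 1, and 119 and 16 for vehicle at day 1 against the control. A minimum of 20 CPM tests more genes and gave 312 and 344 for day 7 against day 1, 96 and 153 for day 14 against day 7 and 108 and 56 for entospletinib at day 1. A minimum of 200 CPM tests fewer and gave 52 and 51, 11 and 33, and 13 and 3. With at least 10 counts, 75 genes were higher at day 14 than at day 7. After thinning, an alternative chosen after seeing the data, the counts were 23 and 26 for entospletinib at day 7 and 16 and 13 for vehicle at day 1 against the control.

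Leaving out each sublibrary in turn kept the mean log2 ratio of the 3 days between -2.75 and -2.64, and moved 2 of the single gene values by more than 1 SD over sublibraries. Gene ratios printed in the report that moved by over 1.5 times are given there. *Retnlg* in vehicle at day 1 against the control, whose main ratio is not printed, ran from 0.74 to 1.63 with 1 sublibrary left out. No paired analysis was possible because no condition has numbered replicates to pair, beyond pairing drug and vehicle by day or within sublibraries of the same pools. Depth limits most the pools with 30 (entospletinib, day 14), 54 (control) and 74 neutrophils (entospletinib, day 7), and genes were compared between drug and vehicle only at days 1 and 7.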
